A study of Mus musculus with 15 samples.

Results

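RNA from the distal jejunum, the last stretch of the middle small intestine, was compared between mice without Aster-B and Aster-C and wild-type mice given ezetimibe. KO control mice carried a whole-body deletion of Aster-B and Aster-C and ate the control diet (3 libraries). WT ezetimibe mice were wild type and ate the same diet with 0.01% ezetimibe added (4 libraries). These 7 of the 15 libraries of the series were chosen by their genotype and diet labels alone. The other 8 libraries, 4 KO ezetimibe and 4 WT control, entered the choice of genes to test, the shared estimate of the spread and the alternative fits over all 15 libraries. Their levels are given where they help to place a gene. All mice were male C57BL/6 aged 13 to 15 weeks, and both diets held 0.08% cholesterol. The deletion was in every tissue and not in the intestine alone. The removed exons are not named in the labels. The 2 groups differ in genotype and in diet at once, so a difference between them cannot be assigned to either one. The labels number the libraries of a group and do not name the mice, so that a p-value here measures sample-to-sample spread, which may be technical.

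Aster proteins, encoded by the Gramd1 genes, sit in the endoplasmic reticulum at contacts with the plasma membrane and move cholesterol between the membranes without vesicles. NPC1L1 is the brush border protein through which enterocytes take up cholesterol from the gut lumen, and ezetimibe blocks it. Cholesterol that reaches the endoplasmic reticulum keeps the transcription factor SREBP2 inactive, so that genes of cholesterol synthesis are turned on when sterol there is low. Oxidised sterols activate the liver X receptors (LXR), which turn on genes of cholesterol efflux such as Abca1, Abcg5 and Abcg8. Loss of Aster-B and Aster-C and blockade of NPC1L1 both act on the delivery of luminal cholesterol to the endoplasmic reticulum. The comparison set 1 against the other directly.

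The 7 libraries held between 14364477 and 19307079 whole reads, as recovered from the deposited values. Log2 levels correlated across genes with r between 0.9745 and 0.9828 within KO control (3 pairs), between 0.9806 and 0.9871 within WT ezetimibe (6 pairs) and between 0.9661 and 0.9785 across the groups (12 pairs). The first principal component of the 7 libraries held 32.2% of the variance and separated the groups. All 12 enterocyte markers passed the filter on low values, with Fabp2, a fatty acid carrier of the small intestine, at a mean of 335193 normalised counts in KO control and 246112 in WT ezetimibe. No pancreatic acinar gene passed it.

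Of 26844 genes, 14299 had a normalised count of at least 10 in at least 3 of the 15 libraries and were tested with limma. A gene was called where its Benjamini-Hochberg adjusted p over all genes tested was under 0.05. There were 449 called genes (3.14%), and 16.3% of the genes tested had an unadjusted p under 0.05. Of these, 126 were higher in KO control (0.881% of the genes tested) and 323 were lower (2.26%). The lower calls were larger, with a median log2 fold change of −1.10 against 0.54 for the higher calls. By contrast 18 of the higher calls, and 197 of the lower calls, differed by at least 1 on the log2 scale. Fold changes are KO control over WT ezetimibe on the log2(normalised count + 1) scale, written log2FC. In all called genes but Ccdc15 (adjusted p = 0.0484), every KO control library lay on the same side of every WT ezetimibe library. Groups that did not overlap were seen in 16.7% of all genes tested. The gene lists set against these shares below were chosen with earlier results of these data known. Among called genes averaging 50 or more in either group, the lowest fold changes included interferon-induced genes (Ifi44, Trim30a, Igtp) beside the deleted Gramd1c. The highest included Paqr8, Scd1, Ddah1 and Abca1. The plot of all genes tested shows this asymmetry.

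The deleted genes were read first. Gramd1c, which encodes Aster-C (ENSMUSG00000036292, chromosome 16, 43980350 to 44063345, minus strand of mm10), had 194, 119 and 115 normalised counts in KO control libraries, against 1243, 1106, 1102 and 1394 in WT ezetimibe libraries. All 3 KO control libraries were far below all 4 WT ezetimibe libraries, at a log2FC of −3.11 ± 0.247 (SE, limma adjusted p = 1.98e-05). Gramd1b, which encodes Aster-B (ENSMUSG00000040111, chromosome 9, 40293233 to 40531383, minus strand), had 1247, 962 and 1229 in KO control and 2859, 2995, 3697 and 3412 in WT ezetimibe. It differed by −1.50 ± 0.175 (log2FC, SE, limma adjusted p = 0.00105), and KO control libraries still held Gramd1b reads. Gene counts do not show which exons these reads cover. Both calls held in each of the 7 fits that left out 1 library. Gramd1a, the gene of Aster-A, the family member that was not deleted, was also lower in KO control. It had 104, 166 and 144 normalised counts in KO control and 226, 298, 298 and 230.3 in WT ezetimibe, a log2FC of −0.94 ± 0.186 (SE, limma adjusted p = 0.0148). Its call was lost without KO control replicate 1 (−0.75, adjusted p = 0.0903). Of 6 tested Aster and GRAM domain genes, the other 3 were not called. Npc1l1, the gene of the ezetimibe target, had 15432, 12626 and 19462 normalised counts in KO control and 19799.8, 16502, 22690.4 and 16851 in WT ezetimibe. The groups overlapped, and the 95% interval of the log2 fold change ran from −0.63 to 0.09 (limma adjusted p = 0.468).

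LXR target genes were higher in KO control where they were called. Of 10 tested members of the list, 2 were called higher (0.881% of all genes tested were) and none lower, and 5 had all KO control libraries above all WT ezetimibe libraries (8.41% of all genes tested did). The median log2 fold change of the 10 genes was 0.35, against 0.00 over all genes tested. Abca1, which exports cholesterol from the basolateral side of the cell to apolipoprotein A-I, had 601, 439 and 641 normalised counts in KO control and 213, 128, 196 and 196 in WT ezetimibe. The groups stood well apart, at a log2FC of 1.61 ± 0.194 (SE, limma adjusted p = 0.00105), and the call held with any 1 of the 7 libraries left out. In the groups that share 1 of the 2 conditions, given as levels without a test, WT control had 1759 ± 379 (SD, n = 4) and KO ezetimibe had 101 ± 12.6 (SD, n = 4). Every KO control library thus lay between the WT libraries on the 2 diets. Abcg5, which with Abcg8 forms the transporter that returns sterols to the gut lumen, had 5011, 3978 and 5356 in KO control and 2783, 2648, 3452 and 2682 in WT ezetimibe. It was called higher at 0.72 ± 0.146 (log2FC, SE, limma adjusted p = 0.0152), with WT control at 5169 ± 762 (SD, n = 4). The Abcg5 call was lost without KO control replicate 1 (adjusted p = 0.0881), KO control replicate 3 (adjusted p = 0.0593) and WT ezetimibe replicate 2 (adjusted p = 0.0527).

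The other LXR targets were not called by limma. On recovered reads edgeR and limma-voom each called 2 of the 10 and DESeq2 3, with Lpcat3 (0.37, adjusted p = 0.0116) the added gene. Apoe, a carrier of cholesterol in lipoproteins, had 1138, 1267 and 1392 normalised counts in KO control and 708, 665, 302 and 513 in WT ezetimibe, groups that did not overlap, at a log2FC of 1.28 (limma adjusted p = 0.114). Apoe was called with the 7 libraries alone (1.28, adjusted p = 0.034). Lpcat3, an enzyme that makes polyunsaturated phospholipids, had 6000.0, 4747 and 5617 in KO control and 3918, 3978, 4583 and 4325 in WT ezetimibe (log2FC 0.37, limma adjusted p = 0.0631). Abcg8, the partner of Abcg5, differed by 0.39 (95% interval −0.06 to 0.83, limma adjusted p = 0.388). Srebf1, whose product drives fatty acid synthesis, differed by 0.32 (95% interval −0.03 to 0.67, limma adjusted p = 0.357). Smpdl3a, a phosphodiesterase of macrophages, differed by 0.24 (limma adjusted p = 0.274). In all, 9 of the 10 fold changes were positive. The count of called LXR targets was 1, 3 and 1 without KO control replicates 1, 2 and 3, and 2, 1, 2 and 2 without WT ezetimibe replicates 1, 2, 3 and 4.

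The promoter of Abca1 is shown because Abca1 had the smallest p of the LXR targets. The 250 bases before its start, from RefSeq on GRCm38.p6, lie at chr4:53159896-53160145 on the minus strand. The capitals mark the match to a direct repeat of the kind that LXR binds, searched on both strands as GGTNA, any 5 bases and GGTCA.
Abca1: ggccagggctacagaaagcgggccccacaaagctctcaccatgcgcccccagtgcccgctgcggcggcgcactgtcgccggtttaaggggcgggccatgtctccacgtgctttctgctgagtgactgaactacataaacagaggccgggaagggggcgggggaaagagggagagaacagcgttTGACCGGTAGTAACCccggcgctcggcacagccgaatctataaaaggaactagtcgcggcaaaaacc
The match is on the opposite strand and begins 67 bases before the start. The same letters occur in 0.207% of 32851 whole promoter windows, in 0.153% of the 10424 tested genes that have a window, and in 2 of 8 LXR target genes with a window. Here and below, such shares were searched over the whole window, which may reach past the 250 bases shown.

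Cholesterol synthesis had 8 of its 20 tested enzymes lower in KO control, against 2.26% of all genes tested, and none higher. The log2 fold change was negative in 19 of the 20, with a median of −0.53. In 11 of them every KO control library was below every WT ezetimibe library, against 8.28% of all genes tested. As the mean log2 level of the 20 genes, the pathway stood at 9.08 to 9.31 in KO control and 9.56 to 9.75 in WT ezetimibe libraries. WT control libraries ranged from 8.56 to 8.99. The highest WT control library was below the lowest KO control library, and KO control was in turn below WT ezetimibe.

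Mvk, mevalonate kinase, which acts early in the pathway, had the smallest p of the list. It had 213, 243 and 222 normalised counts in KO control and 361, 411, 349 and 389 in WT ezetimibe, a log2FC of −0.74 ± 0.12 (SE, limma adjusted p = 0.00496). Its levels were tight within each group, and the call held with any 1 library left out. Pmvk, which adds the next phosphate, had 240.2, 298 and 205 in KO control and 441, 499, 395 and 436 in WT ezetimibe (log2FC −0.85, limma adjusted p = 0.0313). Idi1, the isomerase that makes dimethylallyl diphosphate, had 347, 377 and 380.2 in KO control and 665, 582, 612 and 843 in WT ezetimibe (log2FC −0.86, limma adjusted p = 0.023). Fdft1, squalene synthase, the first step committed to sterols, had 640.3, 791 and 613 in KO control and 1049.7, 1176, 975 and 1257 in WT ezetimibe (log2FC −0.71, limma adjusted p = 0.0461). In each of these 3 enzymes every KO control library was below every WT ezetimibe library.

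After squalene, Cyp51, the lanosterol demethylase, had the largest fold change of the list. Cyp51 had 1195, 1520.2 and 1178 normalised counts in KO control and 2896, 2667, 1905 and 3020.2 in WT ezetimibe, a log2FC of −1.002 ± 0.206 (SE, limma adjusted p = 0.0163). WT ezetimibe replicate 3 was the lowest of its group and still above every KO control library. Msmo1 and Nsdhl, which remove the methyl groups at carbon 4 of the sterol ring, were called at −0.56 and −0.62 (limma adjusted p = 0.0148 and 0.0206). Nsdhl had 308, 285 and 339 in KO control and 571, 425, 431 and 491 in WT ezetimibe. Dhcr7, the last enzyme of the branch through 7-dehydrocholesterol, had 607, 499 and 514 in KO control and 841, 739, 707 and 772 in WT ezetimibe (log2FC −0.50, limma adjusted p = 0.0198). Its KO control mean was close to the WT control mean of 563 ± 38.1 (SD, n = 4), whereas for Cyp51 WT control had 976 ± 229.9 (SD, n = 4).

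The remaining 12 enzymes were not called by limma. On recovered reads edgeR and limma-voom each called 8 of the 20 and DESeq2 10. Sqle, squalene epoxidase, a rate-limiting step, had 845, 947 and 773 normalised counts in KO control and 1622, 1625, 1321 and 1746 in WT ezetimibe. The Sqle groups did not overlap, at a log2FC of −0.88 (limma adjusted p = 0.0626), which missed the threshold. Sqle was called by DESeq2 (−0.89, adjusted p = 0.0086) and by limma with the 7 libraries alone (−0.88, adjusted p = 0.00889). Hmgcs1, which makes HMG-CoA, differed by −0.34 (95% interval −0.70 to 0.01, limma adjusted p = 0.323). Fdps, farnesyl diphosphate synthase, was counted low, with 22.7, 38.9 and 19.5 in KO control and 54.9, 53.5, 41.5 and 39.9 in WT ezetimibe (log2FC −0.84, limma adjusted p = 0.159). Called enzymes numbered 2, 5 and 3 without KO control replicates 1, 2 and 3, and 3, 6, 6 and 4 without WT ezetimibe replicates 1, 2, 3 and 4. None of the 8 changed direction in these fits, which was fixed in advance because their groups did not overlap.

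The promoters of Mvk and Cyp51 are shown because these enzymes had the smallest p and the largest fold change of the pathway. Both are the 250 bases before the start, from RefSeq on GRCm38.p6: Mvk at chr5:114444019-114444268 on the plus strand and Cyp51 at chr5:4104698-4104947 on the minus strand. Capitals mark CCAAT on either strand (ATTGG on the other), the box bound by NF-Y, a factor that works with SREBP2 at many sterol genes.
Mvk: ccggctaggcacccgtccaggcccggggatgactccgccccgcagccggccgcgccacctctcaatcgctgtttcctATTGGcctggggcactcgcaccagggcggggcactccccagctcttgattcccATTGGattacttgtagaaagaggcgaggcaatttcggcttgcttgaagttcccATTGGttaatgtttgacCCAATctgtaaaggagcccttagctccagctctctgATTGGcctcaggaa
Cyp51: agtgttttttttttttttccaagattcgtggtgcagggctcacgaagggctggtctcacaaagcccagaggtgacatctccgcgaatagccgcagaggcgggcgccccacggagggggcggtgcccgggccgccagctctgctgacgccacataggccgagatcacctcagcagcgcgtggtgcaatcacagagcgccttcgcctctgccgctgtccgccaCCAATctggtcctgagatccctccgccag
Mvk holds 5 such boxes in the 250 bases shown and Cyp51 holds 1. A CCAAT box was found in 14 of 15 cholesterol synthesis genes with a window, 7 of 7 of those called, against 42.7% of tested genes and 37.4% of all windows. The box was found in 11 of 13 MHC class I list genes with a window, a list of no sterol genes, and in 5 of 8 LXR targets. A sterol regulatory element-like match (TCACNCCAC, both strands) was found in 1 of these 15 windows and in 1.24% of all windows.

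Of 12 tested genes of sterol sensing and uptake, 1 was called lower in KO control (2.26% of all genes tested were) and none higher. The median log2 fold change was −0.02. Srebf2, the gene of SREBP2 and itself an SREBP2 target, had 1467, 1454 and 1450.3 normalised counts in KO control and 2029, 2276, 1818 and 2042 in WT ezetimibe. The KO control libraries were nearly identical and all below WT ezetimibe, at a log2FC of −0.48 ± 0.122 (SE, limma adjusted p = 0.0437), but the call was lost with any of the 7 libraries left out (adjusted p 0.0575 to 0.143). Insig1, which holds SREBP2 in the endoplasmic reticulum when sterol is high, had 1374, 1359 and 1184 in KO control and 1353, 1621, 1803 and 1568 in WT ezetimibe. The Insig1 groups overlapped, with a 95% interval of −0.59 to 0.04 (limma adjusted p = 0.385), and both lay above WT control, which had 716 ± 169 (SD, n = 4). KO ezetimibe was highest, at 2746 ± 219 (SD, n = 4). Npc1 and Npc2, which carry cholesterol out of lysosomes, differed by −0.38 and 0.28 (limma adjusted p = 0.423 and 0.225). Mbtps2, the protease that makes the last cut to free SREBP2, differed by 0.31 (limma adjusted p = 0.306).

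None of the 12 tested sterol transfer proteins and none of the 10 genes of cholesterol esterification and chylomicrons was called by limma. At an unadjusted limma p under 0.05 (16.3% of all genes tested) there were 2 of the 12 and 4 of the 10. DESeq2 called 1 and 3 of them, and edgeR and limma-voom each called 0 and 1. Among them Lipa and Nceh1, which free cholesterol from its esters, had all KO control libraries above all WT ezetimibe libraries, at log2 fold changes of 0.57 and 0.66 (limma adjusted p = 0.0664 and 0.0978). Apoa1, the acceptor for cholesterol exported by Abca1, had 281603, 247542 and 227496 normalised counts in KO control and 185578, 178860.0, 184717 and 163131 in WT ezetimibe (log2FC 0.50, limma adjusted p = 0.139). Osbpl1a, an oxysterol-binding protein of late endosomes, had 1076, 599.9 and 453 in KO control and 355, 326, 372 and 383 in WT ezetimibe (log2FC 0.89, limma adjusted p = 0.126), with KO control replicate 1 far above the other libraries. Scp2, sterol carrier protein, differed by 0.32 (limma adjusted p = 0.151).

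**Figure D1:**
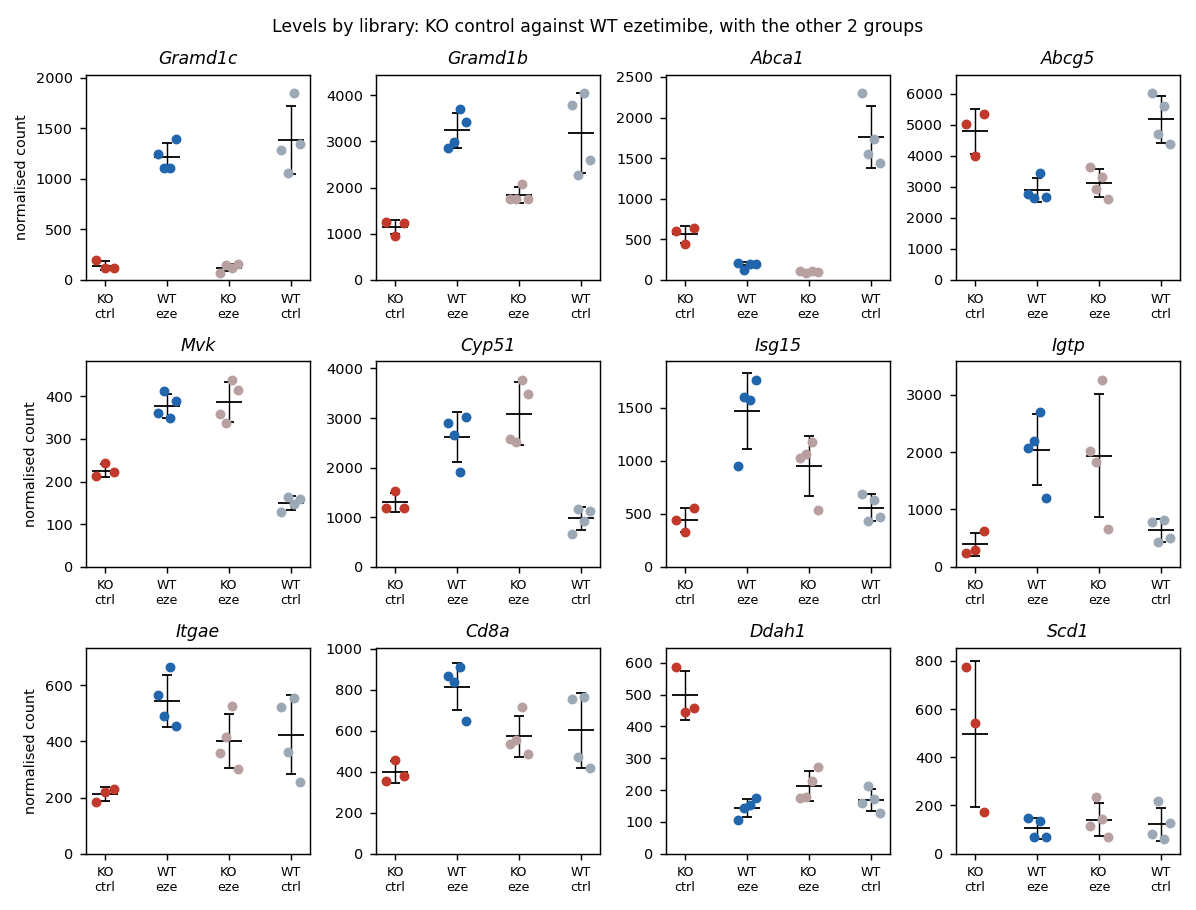
Normalised counts of 12 genes in every library of the 4 groups (points), with the mean and SD of each group (bars), each panel on its own linear axis from 0. KO control libraries lie between those of WT control and WT ezetimibe for Abca1 and below WT ezetimibe for Mvk, Cyp51, Isg15, Igtp, Itgae and Cd8a, and above it for Abcg5, Ddah1 and Scd1.

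T and NK cell markers had 10 of 12 tested members lower in KO control (2.26% of all genes tested were) and none higher. In all 12 every KO control library was below every WT ezetimibe library (8.28% of all genes tested). Total RNA of the tissue does not show where in it these lymphocytes lie. The median log2 fold change was −1.01. Summed over the list, normalised counts ranged from 3599 to 4795 in KO control and from 6669 to 9191 in WT ezetimibe, with WT control at 4677 to 7799. In bulk RNA fewer lymphocytes and less RNA per lymphocyte cannot be told apart. Itgae, the integrin chain that holds T cells to the epithelium, had 183, 221 and 231 in KO control and 565, 489, 665 and 456 in WT ezetimibe (log2FC −1.35 ± 0.239, SE, limma adjusted p = 0.00777). Cd8a, a coreceptor of cytotoxic T cells, had 357, 458 and 378 in KO control and 865, 838, 911 and 648 in WT ezetimibe (log2FC −1.03, limma adjusted p = 0.0148). Ccl5, a chemokine made by cytotoxic lymphocytes, had 372, 698 and 496 in KO control and 1319, 1315, 1418 and 958 in WT ezetimibe (log2FC −1.29, limma adjusted p = 0.0062). The KO control values of these genes were less than those of any WT ezetimibe library, and WT control means lay between the 2 groups, at 424 ± 141 for Itgae and 602 ± 181 for Cd8a (SD, n = 4 each). Cd7, Cd3d, Cd3e, Cd3g, Cd8b1, Gzma and Gzmb were the other called members. Ptprc, the common leukocyte antigen CD45 and not a member of the list, had 490.2, 568 and 628 in KO control and 1091, 1062, 1247 and 982 in WT ezetimibe, a log2FC of −0.96 ± 0.117 (SE, limma adjusted p = 0.00105) that held with any 1 library left out. Among 8 tested GIMAP genes, GTPases of lymphocyte survival that were grouped by symbol after their values were seen, 5 were called lower (2.26% of all genes tested were). Gimap6 had 99.8, 124 and 105 in KO control and 214, 243, 254 and 224 in WT ezetimibe (log2FC −1.09, limma adjusted p = 0.00266). The number of called T and NK cell markers was 0, 9 and 7 without KO control replicates 1, 2 and 3, and 6, 5, 5 and 9 without WT ezetimibe replicates 1, 2, 3 and 4. KO control replicate 1, without which none was called, was the lowest of its group for Itgae, Cd8a and Ccl5.

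Markers of other immune cells gave no limma calls. None of 10 tested myeloid markers was called by limma (2 at an unadjusted p under 0.05, where all genes gave 16.3%, 1 called by DESeq2 and 0 by edgeR and limma-voom), at a median log2 fold change of 0.59, and 5 of them had all KO control libraries above WT ezetimibe (8.41% of all genes tested did). Adgre1, the macrophage antigen F4/80, had 21.1, 20.8 and 45.5 in KO control and 12.7, 15.0, 11.3 and 9.28 in WT ezetimibe (log2FC 1.13, limma adjusted p = 0.316). C1qb and C1qc, complement chains made by macrophages, and Csf1r, their growth factor receptor, differed by 0.95, 1.13 and 1.06 (limma adjusted p = 0.308, 0.127 and 0.261). The summed myeloid level ranged from 967 to 1159 in KO control and from 667 to 977 in WT ezetimibe. None of 8 B and plasma cell markers was called by any of the 4 tools (2 at an unadjusted limma p under 0.05, where all genes gave 16.3%), and their sums overlapped, at 2245 to 4834 in KO control and 1027 to 3228 in WT ezetimibe.

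Interferon response genes had 14 of 17 tested members lower in KO control (2.26% of all genes tested were) and none higher, with the lowest median of the gene groups described here. In 15 of them all KO control libraries were below all WT ezetimibe libraries (8.28% of all genes tested). That median log2 fold change was −1.57. Summed normalised counts of the 17 genes ranged from 6207 to 10241 in KO control and from 15549 to 23873 in WT ezetimibe. In WT control the sums ranged from 7596 to 11755, a range that overlaps that of KO control and not that of WT ezetimibe. Isg15, a ubiquitin-like protein, had 439, 325 and 553 normalised counts in KO control and 950.4, 1601, 1569 and 1758 in WT ezetimibe. It differed by −1.74 ± 0.276 (log2FC, SE, limma adjusted p = 0.00454) and held with any 1 library left out, with WT control at 554 ± 127 (SD, n = 4). Ifit1, which binds foreign RNA, had 622, 479 and 999 in KO control and 2041, 2239, 3184 and 2011 in WT ezetimibe (log2FC −1.80, limma adjusted p = 0.015). Ifi44 had the lowest fold change of all genes tested, with 11.4, 38.0 and 98.6 in KO control and 166, 387, 531 and 457 in WT ezetimibe (log2FC −3.29 ± 0.659, SE, limma adjusted p = 0.015). Its counts spread widely within each group and still did not overlap. Usp18, which removes ISG15 from proteins, Oas2 and Oasl2 of the oligoadenylate synthetase family, and Zbp1, a sensor of Z-form nucleic acid, were called at −2.20, −2.17, −1.62 and −2.28 (log2). Mx1, an antiviral GTPase, was not called (−0.05, limma adjusted p = 0.953). Rsad2, another antiviral protein, also missed the threshold (−1.31, limma adjusted p = 0.0779). Called members numbered 1, 5 and 13 without KO control replicates 1, 2 and 3, and 12, 10, 8 and 11 without WT ezetimibe replicates 1, 2, 3 and 4. KO control replicate 3 was the highest of its group for Isg15, Ifit1 and Ifi44, and WT ezetimibe replicate 1 the lowest of its group for Isg15 and Ifi44.

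Related genes outside the list were grouped by symbol after their values were seen. Of 15 tested GTPases of the Gbp, Irgm, Igtp and Iigp families, which attack vacuoles that hold pathogens, 8 were called lower (2.26% of all genes tested were) and none higher. Igtp had 247, 299 and 626 normalised counts in KO control and 2076, 2187, 2692 and 1200.5 in WT ezetimibe (log2FC −2.44 ± 0.446, SE, limma adjusted p = 0.00952), and lost its call only without KO control replicate 1 (adjusted p = 0.0695). Irgm1 had 235, 276 and 500.4 in KO control and 1008, 1395, 1358 and 844 in WT ezetimibe (log2FC −1.82, limma adjusted p = 0.0148). Gbp6 had 13.8, 19.9 and 23.8 in KO control and 86.6, 114, 106 and 84.5 in WT ezetimibe (log2FC −2.31, limma adjusted p = 0.024), and Gbp4 differed by −1.04 (limma adjusted p = 0.00418). Of 6 tested Schlafen genes, 2 were called lower, against 2.26% of all genes tested (1 without KO control replicate 1, KO control replicate 2 or WT ezetimibe replicate 2), among them Slfn5 (−2.36, limma adjusted p = 0.015). The other lowest fold changes with a group mean of at least 50 were Trim30a (−2.48), Phf11d (−2.46), Herc6 (−2.21), Apol10c-ps (−3.03) and Ly6a (−2.29). Trim30a, Phf11d and Herc6 are known as interferon-induced genes. Phf11d held with any 1 library left out, whereas Apol10c-ps and Ly6a held in only 1 of the 7 such fits each. Called GTPases numbered 1, 3 and 8 without KO control replicates 1, 2 and 3, and 6, 4, 4 and 7 without WT ezetimibe replicates 1, 2, 3 and 4.

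The promoters of Isg15 and Igtp are shown as those of 1 interferon list gene and 1 GTPase. They are the 250 bases before the start, from RefSeq on GRCm38.p6: Isg15 at chr4:156200819-156201068 on the minus strand and Igtp at chr11:58199306-58199555 on the plus strand. Capitals mark the core of the interferon-stimulated response element, searched on both strands as GAAA, any 2 bases and GAAA.
Isg15: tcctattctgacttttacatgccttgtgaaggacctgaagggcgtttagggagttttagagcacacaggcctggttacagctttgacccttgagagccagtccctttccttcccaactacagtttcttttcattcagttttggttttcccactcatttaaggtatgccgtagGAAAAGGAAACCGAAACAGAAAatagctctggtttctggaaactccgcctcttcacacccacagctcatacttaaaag
Igtp: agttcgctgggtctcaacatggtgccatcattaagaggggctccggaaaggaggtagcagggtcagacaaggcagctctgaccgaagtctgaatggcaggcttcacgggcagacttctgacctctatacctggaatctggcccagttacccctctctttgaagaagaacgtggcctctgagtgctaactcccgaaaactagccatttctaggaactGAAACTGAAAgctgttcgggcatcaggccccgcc
Isg15 holds 3 overlapping matches and Igtp holds 1. Such a match was found in 7 of 11 interferon list genes with a window, 6 of 10 of those called, against 3.83% of tested genes and 3.44% of all windows. Among MHC class I list genes with a window it was found in 2 of 13, and in 0 of the 8 called.

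MHC class I presentation, many of whose genes interferon is known to induce, had 10 of 16 tested members lower in KO control (2.26% of all genes tested were) and none higher, with a median log2 fold change of −0.78, and 14 had all KO control libraries below all WT ezetimibe libraries (8.28% of all genes tested did). Nlrc5, the transactivator of class I genes, had 82.0, 118 and 178 normalised counts in KO control and 418, 545, 663 and 458 in WT ezetimibe (log2FC −2.09 ± 0.427, SE, limma adjusted p = 0.016). Tap1, a chain of the peptide transporter, had 673, 857 and 1262 in KO control and 1666, 2559.8, 2362 and 1691 in WT ezetimibe (log2FC −1.17, limma adjusted p = 0.0409). Psmb8 and Psmb9, subunits of the immunoproteasome, were called at −1.09 and −0.89 (limma adjusted p = 0.0209 and 0.0328), and Tap2 at −0.67. Among the classical heavy chains, H2-K1 was called at −0.61 (limma adjusted p = 0.0354) and H2-D1 was not (−0.49, limma adjusted p = 0.117). H2-Q10, a secreted class I heavy chain best known from liver, had 152, 54.3 and 48.7 in KO control and 285, 331, 367 and 366 in WT ezetimibe (log2FC −2.17 ± 0.305, SE, limma adjusted p = 0.00268). It was high in both ezetimibe groups (373 ± 47.3 in KO ezetimibe, SD, n = 4) and low in WT control (63.9 ± 18.0, SD, n = 4). H2-Q4, H2-Q6 and H2-Q7 were called at −1.10, −1.85 and −1.69. The H2-Q genes are near-identical copies whose reads the counting could have split, so their separate values are uncertain. Called members numbered 4, 5 and 8 without KO control replicates 1, 2 and 3, and 6, 5, 4 and 7 without WT ezetimibe replicates 1, 2, 3 and 4.

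For MHC class II, which dendritic cells, B cells and interferon-exposed enterocytes carry, no member of 7 was called by limma (6 at an unadjusted p under 0.05, where all genes gave 16.3%, 1 called by DESeq2 and 0 by edgeR and limma-voom), at a median of −1.05. All 7 fold changes were negative. Cd74, the invariant chain, had 3871, 12103 and 13267 normalised counts in KO control and 22381, 18998, 19452 and 17449 in WT ezetimibe (log2FC −1.19, limma adjusted p = 0.0597). KO control replicate 1 was far below the other KO control libraries, which were themselves below every WT ezetimibe library. H2-Aa had the same order of libraries, with 1770.1, 6515 and 8011 in KO control and 13881, 11204, 12817 and 9736 in WT ezetimibe (limma adjusted p = 0.0772). Without KO control replicate 3, 4 of the 7 were called, and none was called without any other single library. Ciita, the class II transactivator, had overlapping groups (−1.48, limma adjusted p = 0.0812).

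In the interferon, MHC class I and T and NK cell lists, the mean log2 levels of the 2 compared groups thus stood apart. The T and NK cell level was 7.21 to 7.70 in KO control and 8.23 to 8.73 in WT ezetimibe. That of the interferon list was 7.61 to 8.35 in KO control and 9.04 to 9.67 in WT ezetimibe. For MHC class I it was 10.34 to 10.64 in KO control and 11.30 to 11.62 in WT ezetimibe. WT control overlapped KO control, and not WT ezetimibe, for interferon (8.04 to 8.62) and MHC class I (10.59 to 11.085). For T and NK cells WT control (7.74 to 8.50) was above every KO control library and overlapped WT ezetimibe. With the T and NK cell level of each library as a covariate, chosen after seeing the data, 1 gene was called, Gramd1c (−3.25, adjusted p = 0.0419). None of the interferon, MHC class I, T and NK cell or cholesterol synthesis genes was called in that fit. For the T and NK cell genes this was built in, because the covariate is their own mean level. Since the 2 groups did not overlap in this level, it and the groups cannot be told apart in these 7 libraries. Among the log2 fold changes of that fit, limma with the same adjustment, were those of Igtp (−0.62, adjusted p = 0.647), Isg15 (−1.26, adjusted p = 0.292), Abca1 (1.94, adjusted p = 0.195) and Mvk (−0.88, adjusted p = 0.24). Of the 449 called genes, 11 had the opposite sign in it.

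**Figure D2:**
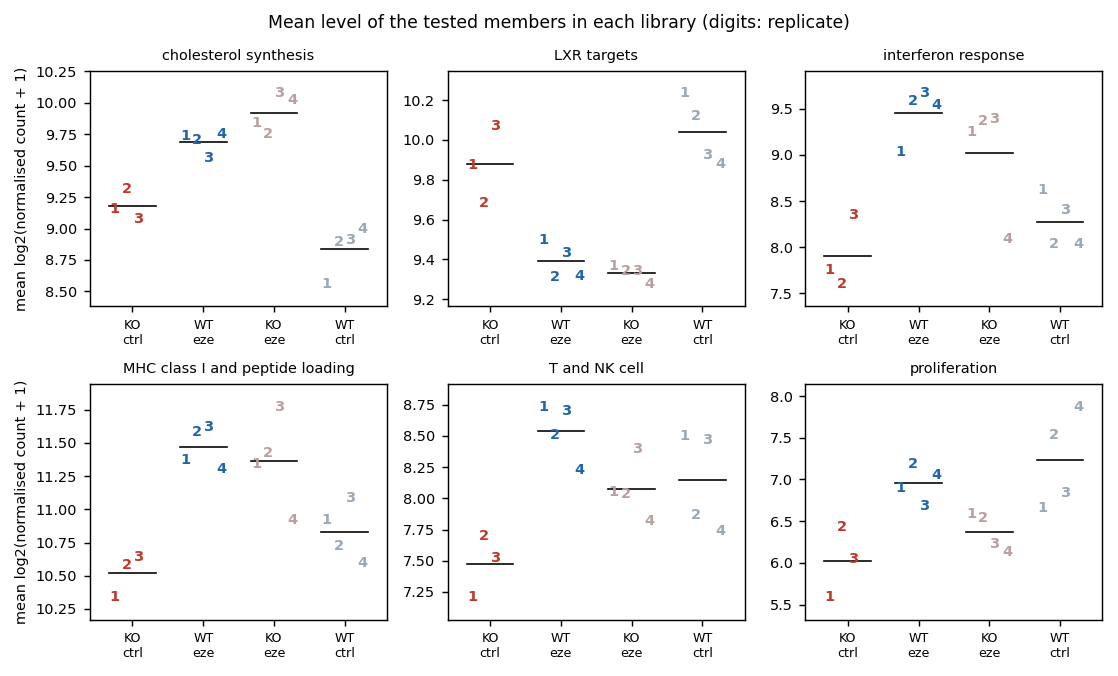
Mean log2(normalised count + 1) of the tested members of 6 gene lists in each library, with the replicate number as the symbol and a line at each group mean; the y axes do not start at 0. KO control is apart from WT ezetimibe in all 6 panels, and KO control replicate 1 is the lowest of its group for MHC class I, T and NK cell and proliferation genes.

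Proliferation genes had 4 of 16 tested members lower in KO control by limma (2.26% of all genes tested were) and none higher, with a median log2 fold change of −0.98, and 10 had all KO control libraries below all WT ezetimibe libraries (8.28% of all genes tested did). On recovered reads edgeR called 2 of them, limma-voom 1 and DESeq2 7. Mki67, the marker of cycling cells, had 167, 341 and 304 normalised counts in KO control and 628, 799, 522 and 668 in WT ezetimibe (log2FC −1.32 ± 0.288, SE, limma adjusted p = 0.022). Top2a, which untangles replicated DNA, had 158, 335 and 175 in KO control and 461, 663, 395 and 551 in WT ezetimibe (log2FC −1.27, limma adjusted p = 0.0453). Aspm and Knl1, of the spindle and the kinetochore, were called at −1.38 and −1.11 from low counts. WT control had 782 ± 327 for Mki67 (SD, n = 4), a mean above both groups with a wide spread. The number called was 0, 4 and 1 without KO control replicates 1, 2 and 3, and 1, 0, 1 and 0 without WT ezetimibe replicates 1, 2, 3 and 4. Genes of other crypt cells were not called by any of the 4 tools, and 0 of 9 Paneth and 2 of 5 stem cell genes had an unadjusted limma p under 0.05 (16.3% of all genes tested did). The 9 Paneth cell genes all had negative fold changes, with a median of −0.53 and overlapping groups, and summed to 11501 to 19162 in KO control and 10191 to 42551 in WT ezetimibe. The 5 stem cell genes summed to 583 to 1439 in KO control and 999 to 2108 in WT ezetimibe. Olfm4, a stem cell marker, had 257, 944 and 336 in KO control and 1055, 1464, 546 and 1150.3 in WT ezetimibe (limma adjusted p = 0.237), and Axin2, a Wnt target, differed by −0.58 (limma adjusted p = 0.109). The part of crypt content in the proliferation result was not tested. With the proliferation level of each library as a covariate, chosen after seeing the data, 10 of 17 interferon genes were called. That fit called 793 of the 14299 genes tested. Abca1 was called higher (1.17, limma adjusted p = 0.0168). The groups did not overlap in this level (5.59 to 6.44 in KO control, 6.68 to 7.18 in WT ezetimibe). Level and group thus cannot be told apart in the 7 compared libraries. In the same fit 2 of 20 cholesterol synthesis genes were called, beside 793 of all 14299 genes tested. Mvk (−0.58, limma adjusted p = 0.0418) was among the 2 and Cyp51 (−0.63, limma adjusted p = 0.137) was not.

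Among the 126 genes higher in KO control, the naming rule kept named genes that averaged 50 or more in either group. The 12 highest of these included Ddah1, Abca1, Gsta4 and Ckb, each called with any 1 library left out. Ddah1, which breaks down methylated arginines that block nitric oxide synthase, had 587, 446 and 459 normalised counts in KO control and 107, 143, 154 and 174 in WT ezetimibe. Its log2FC of 1.79 ± 0.203 (SE, limma adjusted p = 0.00105) left the groups far apart. WT control (168 ± 34.7) and KO ezetimibe (214 ± 46.7, SD, n = 4 each) were both near WT ezetimibe and below every KO control library. Ckb, the brain-type creatine kinase, had 3477, 4202 and 4396 in KO control and 2562, 1595, 2199.8 and 1868 in WT ezetimibe (log2FC 0.98 ± 0.156, SE, limma adjusted p = 0.00454), and KO ezetimibe, at 3317 ± 547 (SD, n = 4), was also high. Gsta4, a glutathione transferase that clears products of lipid peroxidation, had 903, 889 and 695 in KO control and 407, 246, 375 and 379.7 in WT ezetimibe (log2FC 1.25, limma adjusted p = 0.00496). Paqr8, a membrane progestin receptor, had 208, 142 and 164 in KO control and 31.7, 38.5, 19.8 and 39.9 in WT ezetimibe, the highest fold change under the naming rule (2.39 ± 0.409, SE, limma adjusted p = 0.0062), lost only without KO control replicate 1 (adjusted p = 0.0514). Cyp2j6, an epoxygenase of arachidonic acid, had 9521, 6601 and 7786 in KO control and 3919, 3884, 3832 and 3076 in WT ezetimibe (log2FC 1.11, limma adjusted p = 0.0167), lost only without KO control replicate 1 (adjusted p = 0.105).

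The remaining genes among the 12 highest under the naming rule rested more on single libraries. Scd1, the desaturase that makes oleate, had 775, 544 and 171 normalised counts in KO control and 150.0, 67.6, 135 and 70.6 in WT ezetimibe (log2FC 2.06 ± 0.524, SE, limma adjusted p = 0.045). KO control replicate 3 was close to WT ezetimibe, and Scd1 was called in 1 of 7 fits with 1 library left out, that without KO control replicate 3. Tm4sf4, an intestinal tetraspanin-like protein, had 22821, 17448 and 7621 in KO control and 5256, 6628, 5556 and 5909 in WT ezetimibe (log2FC 1.32, limma adjusted p = 0.0383), and was likewise called in that fit alone. Il18, an epithelial cytokine, had 941, 750.1 and 987 in KO control and 312, 297, 546 and 548 in WT ezetimibe (log2FC 1.12, limma adjusted p = 0.0249). Il18 lost its call without KO control replicate 1, KO control replicate 3, WT ezetimibe replicate 1 and WT ezetimibe replicate 2. Npl, which splits sialic acid, and Eif4ebp1, a repressor of cap-dependent translation, were called at 1.28 and 1.01 (limma adjusted p = 0.025 and 0.017), in 1 and 5 of the 7 fits. Npl had no call except without WT ezetimibe replicate 1, and Eif4ebp1 lost its call without KO control replicate 1 and KO control replicate 2. Ctsl, the lysosomal protease cathepsin L, had 522, 496 and 322 in KO control and 288, 192, 174 and 228 in WT ezetimibe (log2FC 1.01, limma adjusted p = 0.0206), and lost its call without KO control replicate 1, KO control replicate 2, WT ezetimibe replicate 2 and WT ezetimibe replicate 3. Of 13 tested cathepsins, 3 were called higher (Ctsa, Ctsl and Ctsz, at 0.48, 1.01 and 0.33), against 0.881% of all genes tested. The median over the 13 was 0.04, and 3 had all KO control libraries above and 3 below all WT ezetimibe libraries. Of 23 tested glutathione transferases 4 were (Gsta4, Gstk1, Gstm2 and Mgst3, at 1.25, 0.69, 0.93 and 0.44), also against 0.881%. Both families were grouped by symbol after their values were seen. Called cathepsins numbered 0, 1 and 2 without KO control replicates 1, 2 and 3, and 2, 0, 1 and 2 without WT ezetimibe replicates 1, 2, 3 and 4. For glutathione transferases the number was 1, 1 and 1 without KO control replicates 1, 2 and 3, and 2, 1, 2 and 1 without WT ezetimibe replicates 1, 2, 3 and 4.

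Fatty acid oxidation had 3 of 17 tested genes higher in KO control (0.881% of all genes tested were) and none lower. All 17 fold changes were positive (49.8% of all genes tested were), and the median was 0.33. Acadm, the medium-chain acyl-CoA dehydrogenase, had 3488, 3371 and 3623 normalised counts in KO control and 2722, 2478, 2647 and 2249 in WT ezetimibe (log2FC 0.47 ± 0.0951, SE, limma adjusted p = 0.015). Acadvl, its very-long-chain counterpart, and Hadhb, of the mitochondrial trifunctional protein, were called at 0.38 and 0.30 (limma adjusted p = 0.0197 and 0.0453). Fabp1, a fatty acid carrier, had 57988, 61596 and 40898 in KO control and 37182, 31194, 30119.9 and 38436 in WT ezetimibe (limma adjusted p = 0.071). The number called was 0, 2 and 3 without KO control replicates 1, 2 and 3, and 2, 1, 2 and 2 without WT ezetimibe replicates 1, 2, 3 and 4.

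Nuclear genes of oxidative phosphorylation, grouped by symbol after their values were seen, had 10 of 75 tested members higher in KO control (0.881% of all genes tested were) and none lower, by small amounts. Of the 75, 73 had positive fold changes, 52 had all KO control libraries above all WT ezetimibe libraries (8.41% of all genes tested did), and the median was 0.32. Cox6a1, of complex IV, had 6331, 6925 and 5740.5 normalised counts in KO control and 4433, 4401, 4484 and 4064 in WT ezetimibe (log2FC 0.54 ± 0.0942, SE, limma adjusted p = 0.00717), and held with any 1 library left out. Ndufa6, of complex I, had 2658, 2592 and 2262 in KO control and 1744, 1798, 1890.4 and 1877 in WT ezetimibe (log2FC 0.45, limma adjusted p = 0.015). No gene of the 12 tested from the mitochondrial genome was called by limma (3 at an unadjusted p under 0.05, where all genes gave 16.3%, 2 called by DESeq2 and 0 by edgeR and limma-voom), at a median of 0.18. Called nuclear genes numbered 1, 1 and 6 without KO control replicates 1, 2 and 3, and 5, 3, 3 and 3 without WT ezetimibe replicates 1, 2, 3 and 4.

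Fatty acid synthesis, the pathway that SREBP1 drives, had Scd1 as the 1 gene called higher among 13 tested (0.881% of all genes tested were). None was called lower, and the median was −0.14. Acly, which makes cytosolic acetyl-CoA, had 509.7, 493 and 509 normalised counts in KO control and 574, 644, 603 and 605 in WT ezetimibe (limma adjusted p = 0.255), separated groups with a small difference. None of 7 bile acid genes was called by limma (3 at an unadjusted p under 0.05, where all genes gave 16.3%, 1 called by DESeq2 and 0 by edgeR and limma-voom). Fabp6, the ileal bile acid carrier, had 497, 224 and 601 in KO control and 68.6, 129, 174 and 47.4 in WT ezetimibe (log2FC 2.12, limma adjusted p = 0.211), and Slc10a2, the bile acid importer of the distal gut, differed by 0.67 (limma adjusted p = 0.194). None of 12 enterocyte markers (median −0.00), 7 goblet cell markers (median 0.10), 10 enteroendocrine genes (median −0.06), 5 tuft cell genes, 8 carotenoid and retinoid genes, 8 endoplasmic reticulum stress genes, 7 immediate early genes or 15 clock genes was called by any of the 4 tools. At an unadjusted limma p under 0.05 (16.3% of all genes tested) there were 2 of 12 enterocyte, 2 of 7 goblet cell, 1 of 5 tuft cell, 1 of 8 stress and 1 of 7 immediate early genes, and 0 in the other lists. Stromal and adipocyte genes were not called by any of the 4 tools either (1 each at an unadjusted limma p under 0.05, where all genes gave 16.3%), at medians of 1.00 over 6 genes and 2.01 over 5. Summed stromal counts ranged from 132 to 182 in KO control and from 60.4 to 88.3 in WT ezetimibe, without overlap. Col3a1, a fibrillar collagen chain, had 45.4, 29.9 and 70.4 in KO control and 24.3, 22.5, 12.3 and 16.7 in WT ezetimibe, groups that did not overlap (log2FC 1.27, limma adjusted p = 0.366). Summed adipocyte counts ranged from 56.8 to 518 in KO control and from 4.70 to 253 in WT ezetimibe. Plin1, the perilipin of fat droplets, was at 0 in WT ezetimibe replicates 3 and 4 and had 7.30, 26.2 and 5.42 in KO control. The part of fat or stroma in the other results was not tested.

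**Figure D3:**
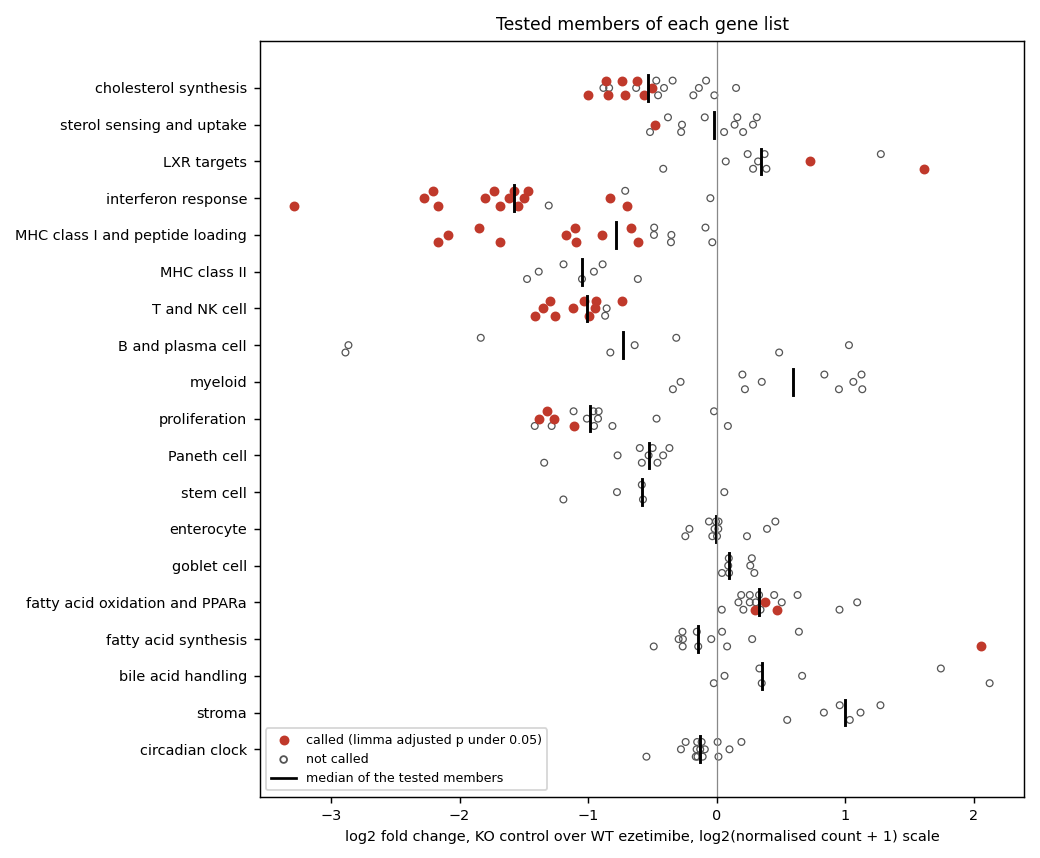
Log2 fold changes of KO control over WT ezetimibe for every tested member of 19 gene lists (points, filled where called), with the median of each list as a bar; points are spread vertically only for legibility. Interferon, MHC class I and T and NK cell genes lie to the left of 0, LXR targets and fatty acid oxidation genes mostly to the right, and enterocyte genes around 0.

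The number of called genes depended on each single library. It was 68 without KO control replicate 1, and was 247 without KO control replicate 2 and 321 without KO control replicate 3. Without WT ezetimibe replicates 1, 2, 3 and 4 it was 269, 180, 196 and 285. Of the 449 genes, 62 were called in all 7 of these fits and 182 in at least 4. Of the genes named here, those called in all 7 were Gramd1b, Gramd1c, Abca1, Mvk, Ddah1, Ckb, Gsta4, Isg15, Phf11d, H2-Q4, H2-Q6, H2-Q7, H2-Q10, Ptprc, Gimap4, Gimap6, Gbp4 and Cox6a1. Of the 449, 0 changed direction in any fit without 1 library. For all but Ccdc15 this was fixed in advance, because the libraries of the 2 groups did not overlap. Count tests on the recovered reads called 420 genes with edgeR (2.94% of genes tested) and 406 with limma-voom (2.84%). DESeq2 called 757 genes, 289 higher and 468 lower. That is 5.63% of the 13457 genes to which DESeq2 gave an adjusted p. All 4 tools called 381 genes.

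**Figure D4:**
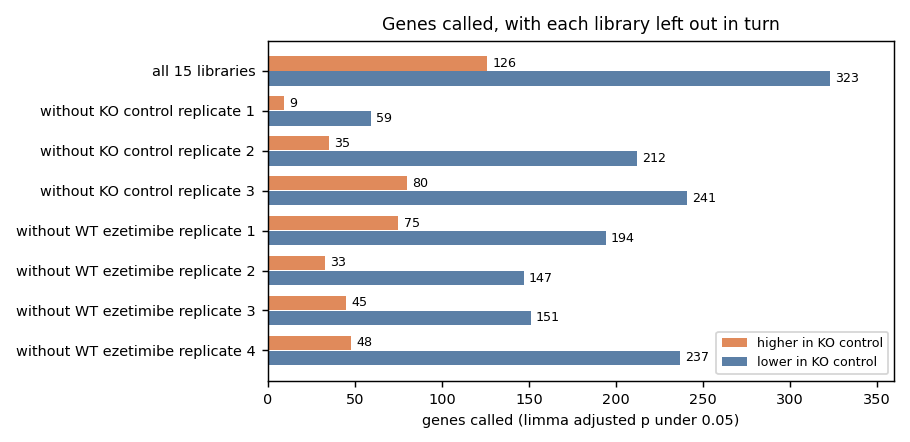
Bars give the number of genes called higher (orange) and lower (blue) in KO control with all 15 libraries and with each of the 7 compared libraries left out in turn. Lower calls outnumber higher calls in every fit, and both counts are smallest without KO control replicate 1 (9 higher and 59 lower).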

How the data were processed

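Total RNA of distal jejunum was sequenced, and the deposited table holds 26844 genes in 15 libraries. Its values are counts that the authors divided by DESeq2 size factors (unit: signal). Per the submitters' processing notes the tools were FastQC, STAR 2.6.0c and DESeq2 with the mm10 build. The labels name no read counter, annotation or strand setting (each not given in the sources used here), and overlapping and antisense genes cannot be separated. All values were whole multiples of a step per library (tolerance 0.001), which gave the whole reads.

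Genes that reached a value of 10 in 3 or more libraries were fitted with limma 3.58.1 (trend) in R 4.3.3 on log2(value + 1), with 4 group means over all 15 libraries. KO control was set against WT ezetimibe, with Benjamini-Hochberg adjustment over all genes tested. Counting depth limits the precision of low genes. Mean log2 levels of lists weight their genes equally. Alternatives were pseudocounts of 0.5 and 5, no filter or a mean of 50 or more, scaling by TMM or by quantiles, only the 7 compared libraries, a replicate block, robust variances, edgeR 4.0.16, DESeq2 1.42.0 and limma-voom on recovered reads, each library left out, and, chosen after seeing the data, covariates for the T and NK cell or proliferation level. The fit was tested on simulated data.

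IDs were matched to GENCODE M21 (26825 of 26844), and promoters are from RefSeq on GRCm38.p6. The members and gene lists were chosen with earlier results of these data known. Named by rule were the Aster genes and Npc1l1, 12 called genes at each end of the fold changes that averaged 50 or more in either group (unnamed gene models left out), and the members of each list with the smallest p (6 for the cholesterol lists, 3 for the others). A further 42 genes were named after their values were seen: Pmvk, Fdft1, Sqle, Fdps, Hmgcs1, Cd8a, Cd3e, Cd8b1, Ptprc, Gimap6, Gimap4, Ifit1, Ifit3, Oasl2, Nlrc5, Psmb8, Psmb9, Tap1, Irgm1, Gbp4, Cox6a1, Ndufa6, Adgre1, Top2a, Abcg8, H2-K1, H2-D1, H2-Q4, Tap2, Rsad2, Mx1, Cd3d, Cd3g, Gzma, Gzmb, Ctsa, Ctsz, Gstk1, Gstm2, Mgst3, Fabp1 and Ccdc15. Some genes of the lists are counted but not reported here by name.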

Additional observations from a re-analysis of the deposited data

Results flagged for a closer look

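In 11 of 201 groups of 4 libraries looked at (genes named in the text and gene lists, in WT ezetimibe), 1 library stood far from the other 3 relative to the group's range, and chance sets about 1 in 20 groups apart in this way. In WT ezetimibe replicate 1, Fabp4 (133.1 normalised counts, others 1.878 to 21.7), Plin1 (22.18, others 0 to 0.939), Npc1 (1051, others 816.9 to 840.2) and Rbp2 (55590, others 41417 to 43725) were highest. In WT ezetimibe replicate 2, Hmgcs1 was highest (3952, others 3188 to 3251) and Me1 lowest (667.7, others 900.8 to 922.6). In WT ezetimibe replicate 3, Abcg5 was highest (3452, others 2648 to 2783), and the mean log2 level of the immediate early list was lowest (9.331, others 9.56 to 9.598). In WT ezetimibe replicate 4, Cd3e (178.3, others 252.4 to 264.1) and Cyp2j6 (3076, others 3832 to 3919) were lowest, as was the mean log2 level of the interferon-inducible GTPases (6.607, others 7.071 to 7.136).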

How the results depend on the processing

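The main fit called 449 genes, and each count here is the total called in a setting. Pseudocounts of 0.5 and 5, TMM scaling, the 7 libraries alone, robust variances, edgeR, limma-voom and both filters gave between 302 (no filter) and 443. The number shared with the 449 was 443 with a pseudocount of 0.5, 307 with the 7 libraries alone and 285 with no filter. Quantile normalization gave 298 (274 shared), DESeq2 757 (444 shared) and the replicate block 680 (430 shared). The T and NK cell covariate gave 1 and the proliferation covariate 793 (217 shared). In their deviations from the group mean, same-numbered libraries correlated with r of −0.0888, 0.331 and 0.262. Libraries of unlike number correlated with r from −0.337 to 0.13. Whether the numbers pair the samples cannot be told from these values.

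Without 1 library, the called genes ranged from 68 to 321, and the called list members from 2 to 6 for cholesterol synthesis, 0 for sterol sensing in every case, 1 to 3 for LXR targets, 1 to 13 for interferon, 4 to 8 for MHC class I, 0 to 9 for T and NK cells, 0 to 4 for proliferation and 0 to 3 for fatty acid oxidation. The T and NK cell covariate left 0 in each of these 8 lists. The proliferation covariate called 793 of the 14299 genes tested. It left 2 for cholesterol synthesis, 6 for MHC class I, 0 for proliferation and 1 for fatty acid oxidation. Each covariate was the mean level of 1 of these lists, so the 0 for that list was built in. Sterol sensing had 0 with no filter or quantile normalization and 2 with the 7 libraries alone. Proliferation had 1 with no filter, quantile normalization or limma-voom, 2 with a mean of at least 50 or edgeR, and 7 with DESeq2. Fatty acid oxidation had 1 with the 7 libraries alone and 6 with DESeq2.

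Of the 162 named genes, these turned in sign (log2 fold change). Without 1 library, Mx1 ranged from −0.1603 to 0.04548 and Hba-a2 from −0.17 to 0.56, turning without KO control replicate 2 (0.001469 and −0.016) or WT ezetimibe replicate 3. With the T and NK cell covariate they were Hba-a2 (−2.32), Tap2 (0.041), Per2 (0.092), Osbpl8 (0.17), Npc1l1 (0.23), Nceh1 (−0.007762), Mx1 (0.94), Mbtps2 (−0.005332), Hbb-bs (−0.76), Hba-a1 (−0.78), H2-D1 (0.15), H2-Aa (0.068), Gzma (0.048), Des (−1.56), Fosb (0.54), Apoe (−0.24), Col3a1 (−0.9986), Col1a2 (−0.52), Ciart (0.25), Cd8b1 (0.062), Cd8a (0.033), C1qb (−0.50), Csf1r (−0.61), Adgre1 (−0.50) and Acta2 (−0.27). With the proliferation covariate they were Mmp7 (0.63), Pax5 (1.12), Junb (−0.028), Nts (−0.056), Ms4a1 (1.00), Olfm4 (0.45), Jun (−0.025), Smoc2 (0.75), Ang4 (0.64), Alpi (−0.044), Abcg8 (−0.032), Pla2g2a (0.20) and Chgb (0.086). The cause was not tested.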

Other observations

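Genes of other functions named by the rule were not called by limma. Rbp2, the retinol carrier of enterocytes, differed by 0.31 (log2, 95% interval −0.08 to 0.70, limma adjusted p = 0.441), and Aldh1a1, which makes retinoic acid, by 0.61 (95% interval −0.14 to 1.36, limma adjusted p = 0.422). Tff3, a trefoil peptide of goblet cells, differed by 0.27 (95% interval 0.05 to 0.49). Among clock genes Ciart, a repressor, differed by −0.55 (95% interval −1.86 to 0.76) and Per2 by −0.24 (95% interval −0.82 to 0.33). Dnajb9, a chaperone of the endoplasmic reticulum, had 3329, 4616 and 2843 normalised counts in KO control and 2183, 2602, 2511 and 2522 in WT ezetimibe (limma adjusted p = 0.152). Me1, which supplies NADPH to fatty acid synthesis, had 1611, 1340.1 and 1052 in KO control and 901, 668, 923 and 911 in WT ezetimibe (limma adjusted p = 0.34). Pax5, a B cell factor, had 0, 39.8 and 2.17 in KO control and 20.1, 66.7, 26.4 and 49.2 in WT ezetimibe (limma adjusted p = 0.3).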
